A study of Mus musculus with 20 samples.

Results

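The 10 genes described here, Plk2, Plk3, Phlda3, Gadd45a, Gadd45b, Gadd45g, Btg2, Mdm2, Ccng1 and Trp53inp1, are p53 and stress response genes, 10 of the 21631 protein-coding genes of the mouse annotation. They were chosen by role and by the Suz12 counts of these same libraries, treated against untreated: Plk2 and Phlda3 lose counts when transcription is blocked, and Gadd45b gains them. Changes between treated and untreated cells are therefore given as a description, with no test. Suz12 was measured by ChIP-seq in E14 cells, a wild-type mouse embryonic stem cell line kept in serum with LIF on gelatin, and reads were counted over called peaks. The treated groups had 12 h of DRB at 100 µM, which inhibits the kinase that lets paused RNA polymerase elongate, or 9 h of triptolide at 10 µM, which inhibits the helicase that opens promoter DNA. The untreated groups were the 0 h points of the DRB and of the triptolide series, and each of the 4 groups had 2 libraries. Of the 10 genes, 8 had a peak within 1 kb of an annotated end, in 9 regions, out of 11943 regions in all.

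Suz12 belongs to the core of Polycomb repressive complex 2, which methylates histone H3 and occupies CpG-rich promoters of silent genes in embryonic stem cells. The transcription factor p53 accumulates after DNA damage and other stress and switches on genes that halt the cell cycle, repair DNA or start apoptosis. The polo-like kinases Plk2 and Plk3, the Akt inhibitor Phlda3, the growth arrest genes of the Gadd45 and Btg families, and the p53 regulators Mdm2, Ccng1 and Trp53inp1 belong to that response.

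The promoters of the 5 genes whose counts differed most between treated and untreated libraries are shown, since a Suz12 peak lay over each of them in at least 1 list. They run from 250 bases before to 50 bases after the start site (RefSeq, GRCm38.p6), 5′ to 3′ on the strand of the gene, and capitals mark each CG dinucleotide. Plk2 lies at chr13:110394794-110395093 (plus strand), Phlda3 at chr1:135765835-135766134 (plus strand), Btg2 at chr1:134079106-134079405 (minus strand), Plk3 at chr4:117133914-117134213 (minus strand) and Gadd45b at chr10:80929841-80930140 (plus strand).
Plk2: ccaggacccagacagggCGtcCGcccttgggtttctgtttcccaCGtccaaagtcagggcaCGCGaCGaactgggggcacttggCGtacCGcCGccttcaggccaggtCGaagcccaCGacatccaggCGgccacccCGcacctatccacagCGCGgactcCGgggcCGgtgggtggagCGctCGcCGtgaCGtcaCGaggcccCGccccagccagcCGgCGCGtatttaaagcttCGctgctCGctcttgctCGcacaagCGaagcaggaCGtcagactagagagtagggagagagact
Phlda3: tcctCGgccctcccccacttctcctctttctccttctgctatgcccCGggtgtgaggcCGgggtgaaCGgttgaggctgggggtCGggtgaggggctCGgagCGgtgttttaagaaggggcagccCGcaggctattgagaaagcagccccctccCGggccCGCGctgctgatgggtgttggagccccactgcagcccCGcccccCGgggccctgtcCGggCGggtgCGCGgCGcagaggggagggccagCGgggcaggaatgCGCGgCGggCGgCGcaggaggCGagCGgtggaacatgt
Btg2: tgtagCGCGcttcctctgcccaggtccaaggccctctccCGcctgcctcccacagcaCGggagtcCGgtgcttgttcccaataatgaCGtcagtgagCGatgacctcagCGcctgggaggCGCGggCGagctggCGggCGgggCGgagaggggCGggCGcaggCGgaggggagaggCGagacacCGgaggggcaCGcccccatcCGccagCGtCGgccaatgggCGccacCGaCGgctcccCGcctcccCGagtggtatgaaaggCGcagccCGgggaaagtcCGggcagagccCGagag
Plk3: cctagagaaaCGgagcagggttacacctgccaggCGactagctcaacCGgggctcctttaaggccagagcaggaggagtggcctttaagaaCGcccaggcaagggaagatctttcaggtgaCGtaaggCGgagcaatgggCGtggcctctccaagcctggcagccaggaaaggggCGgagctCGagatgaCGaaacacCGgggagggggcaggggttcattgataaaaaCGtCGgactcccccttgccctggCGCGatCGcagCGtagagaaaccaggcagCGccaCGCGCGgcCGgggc
Gadd45b: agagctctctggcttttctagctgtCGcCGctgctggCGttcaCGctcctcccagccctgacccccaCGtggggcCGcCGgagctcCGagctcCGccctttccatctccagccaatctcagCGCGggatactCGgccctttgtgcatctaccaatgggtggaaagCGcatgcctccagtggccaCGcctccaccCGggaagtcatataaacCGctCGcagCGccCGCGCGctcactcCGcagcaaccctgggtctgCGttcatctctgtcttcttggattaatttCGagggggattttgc

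Of the promoters with lower Suz12 counts in treated libraries, Plk2 held 31 CG dinucleotides, Btg2 32, Phlda3 26 and Gadd45g 21. Of those with higher counts, Gadd45b held 24 and Plk3 22. Over 17274 promoters of the same length the median was 14, with quartiles of 4 and 24, and over the 2328 promoters of genes with a region of all 8 lists it was 21. Mdm2, which had 1 narrow peak in the gene and none over this window, held 35, and Gadd45a and Ccng1 held 14 each.

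Motifs were searched by their letters on both strands, with positions counted from 0 at the start site. TGACGTCA, the cAMP response element, was found in Plk2 at -62 and in Btg2 at -166, and in 2.37% of all 17274 promoters. The GC box GGGCGG was found in Plk2, Phlda3, Btg2, Plk3, Gadd45a, Gadd45b and Mdm2, and in 46.9% of all promoters; the matches at -115 and -110 in Btg2 share 1 base. TATAAA was found in Gadd45b at -46 and in Gadd45g at -27, and in 13.4% of all promoters, while CCAAT, found in 39.4% of all promoters, was in Btg2, Gadd45a, Gadd45b, Gadd45g, Mdm2 and Ccng1. The p53 response element consensus in its single-decamer form was found in Gadd45a at -40, in Mdm2 at -186 and in Ccng1 at -185, and in 7.33% of all promoters; Plk2, Phlda3, Btg2, Plk3 and Gadd45b had no match in this window. These are matches of letters alone.

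The libraries held 1323927 to 7340017 reads counted over the regions, and levels are given as CPM, the counts per 1e+06 of those reads after TMM scaling. The chi-square of replicate counts, divided by its degrees of freedom, was 2.47 to 8.65, above counting noise in each group. No label states separate cultures, so p-values measure the spread between these libraries alone. Treated libraries were run in lanes 3 and 6 and untreated libraries in lanes 1 and 4, so that lane and treatment cannot be told apart. All 7 silent lineage genes checked had a peak in all 8 lists and all 7 genes known to be active in embryonic stem cells had none. Changes are relative: the median change over all regions was 0.05 on the log2 scale, and 0.41 when libraries were scaled to the regions with a peak in all 8 lists. In the values below, DRB libraries are named by index, ATCACG and then TGACCA, and triptolide libraries by replicate, 1 and then 2.

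Plk2, a polo-like kinase that acts in centriole duplication and is induced by p53, had the largest difference of the 8 genes. Its region ran from -785 to 995 bp from the start site and held a peak in 1 treated list, DRB 12 h replicate 1, against all 4 untreated lists. Plk2 had 27.6 and 22.6 CPM at DRB 12 h, against 73.1 and 89.2 CPM at DRB 0 h. It had 22.6 and 25.2 CPM at triptolide 9 h, against 97.5 and 102 CPM at triptolide 0 h. The treated values sat close together, below every untreated value. The log2 change was -1.74 ± 0.18 (SE) under DRB and -2.06 ± 0.18 under triptolide, and -1.90 ± 0.13 over both. Scaled to the regions of all 8 lists, it was -1.54.

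The peak of Plk2 was also shorter where it remained. It covered 716 bp in DRB 12 h replicate 1, against 1139 and 1519 bp at DRB 0 h and 1781 and 1673 bp at triptolide 0 h. Counts within those 716 bp, the core, were set against the rest of the widest peak, the flank, a split chosen after the values had been seen. The core averaged 18.9 CPM per kb at DRB 12 h and 77.0 CPM per kb at DRB 0 h, a ratio of 0.246, and 15.7 at triptolide 9 h and 81.8 at triptolide 0 h, a ratio of 0.192. The flank averaged 10.9 CPM per kb at DRB 12 h and 24.4 at DRB 0 h, and 11.9 at triptolide 9 h and 38.7 at triptolide 0 h. This core was above the flank in all 8 libraries, and the gap between them was smaller in treated than in untreated cells. The core is itself a called peak, so its choice favours a level above the flank.

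Plk3, the polo-like kinase that responds to DNA damage and other stress, lay on the opposite side. Its region spans chr4:117132639-117134280, around the start site, and it was called in the 4 treated lists but in none of the untreated ones, a pattern found at 8.92% of all regions. Plk3 had 89.6 and 66.5 CPM at DRB 12 h, against 27.9 and 24.9 CPM at DRB 0 h. It had 79.1 and 77.0 CPM at triptolide 9 h, against 28.1 and 23.5 CPM at triptolide 0 h. All treated libraries were above all untreated ones. The log2 change was 1.57 ± 0.20 under DRB and 1.59 ± 0.19 under triptolide, and 1.58 ± 0.14 over both, or 1.94 scaled to the regions of all 8 lists. The 4 peaks were alike in width, from 1477 to 1588 bp, and each covered the start site.

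The kinases differed in opposite directions. Plk2 was counted over a peak of triptolide 0 h replicate 1 and Plk3 over one of DRB 12 h replicate 1. Each peak was thus taken where its gene was high, which favours this contrast. Per kb of the counted peak, Plk2 held 12.7 to 15.5 CPM in treated and 41.1 to 57.4 CPM in untreated libraries, and Plk3 held 41.8 to 56.4 CPM in treated and 14.8 to 17.7 CPM in untreated libraries.

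**Figure D1:**
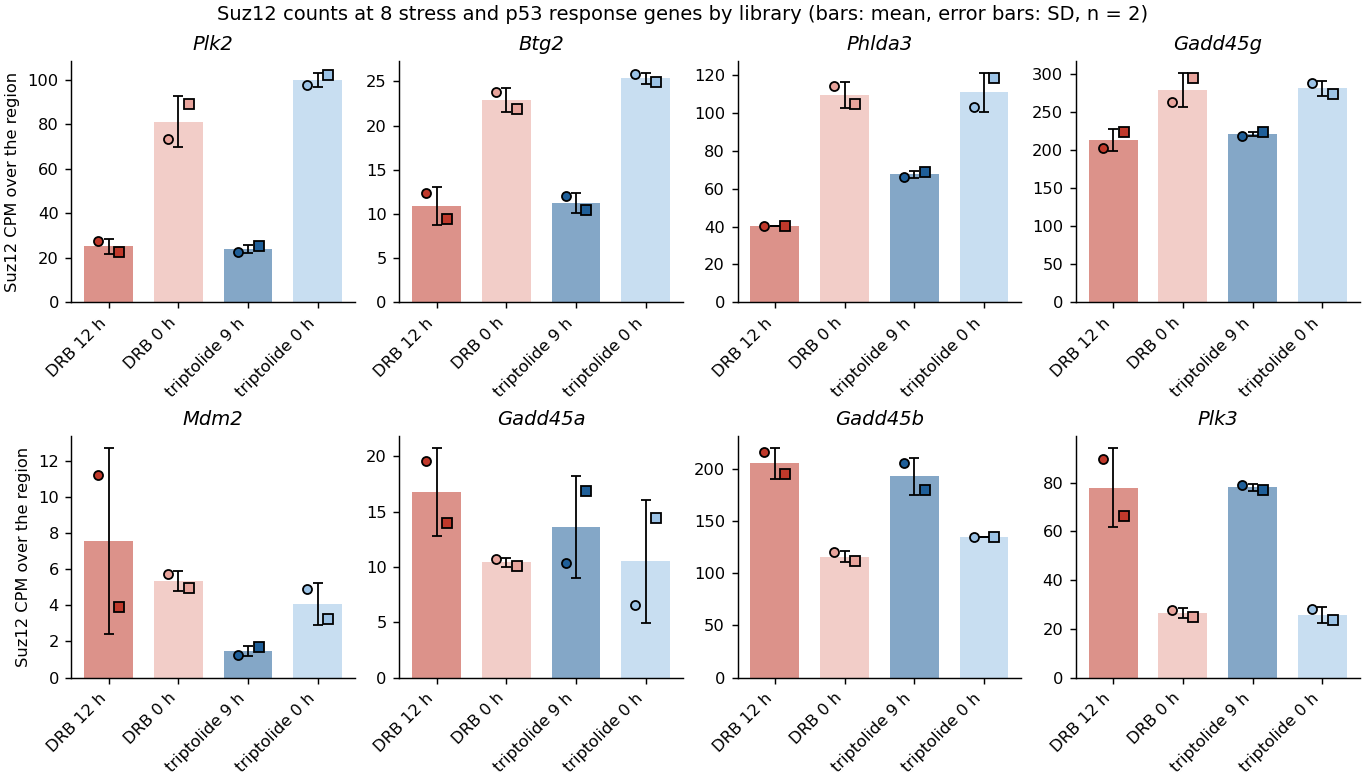
Suz12 CPM over the region of 8 genes, with 1 point per library (circle: index ATCACG or replicate 1; square: index TGACCA or replicate 2), bars for the mean of 2 libraries and error bars for the SD. Treated libraries lie below untreated ones at Plk2, Btg2, Phlda3 and Gadd45g and above them at Gadd45b and Plk3, and they overlap at Mdm2 and Gadd45a.

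Phlda3, which blocks Akt by competing for membrane lipids, was lower in treated libraries but kept its peak in all 8 lists, as did 35.8% of all regions. It had 40.4 and 40.2 CPM at DRB 12 h, against 114 and 104 CPM at DRB 0 h. It had 66.2 and 68.9 CPM at triptolide 9 h, against 103 and 118 CPM at triptolide 0 h. The treated libraries lay below the untreated ones in both series, and the DRB 12 h libraries also lay below those of triptolide 9 h. The log2 change was -1.43 ± 0.15 under DRB and -0.71 ± 0.14 under triptolide, and -1.07 ± 0.11 over both, or -0.70 scaled to the regions of all 8 lists. Phlda3 was counted over the peak of triptolide 0 h replicate 1, an untreated list, which favours this difference. Peak width overlapped between the groups, at 1131 to 1538 bp in treated and 1303 to 1670 bp in untreated lists.

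The core of Phlda3, the 1131 bp of the narrowest peak, averaged 31.0 CPM per kb at DRB 12 h and 86.6 at DRB 0 h, and 52.0 at triptolide 9 h and 84.7 at triptolide 0 h. Its ratios, 0.358 and 0.614, were near those of its flank, 0.457 and 0.587. The core of Phlda3 was also above its flank in treated cells, where the flank averaged 9.65 CPM per kb at DRB 12 h and 16.2 at triptolide 9 h. This core is the called peak of DRB 12 h replicate 2, so its choice favours a level above the flank.

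Btg2, an antiproliferative protein that binds the deadenylase complex and is a p53 target, had few counts. Its 885 bp region over the start site came from a single peak, that of triptolide 0 h replicate 2. Btg2 had 12.4 and 9.42 CPM at DRB 12 h, against 23.8 and 21.9 CPM at DRB 0 h. It had 12.1 and 10.4 CPM at triptolide 9 h, against 25.8 and 24.9 CPM at triptolide 0 h. These CPM rest on 31 to 75 reads per treated library and 29 to 93 reads per untreated library, and the treated libraries lay below the untreated ones all the same. The log2 change was -1.10 ± 0.26 under DRB and -1.17 ± 0.24 under triptolide, and -1.14 ± 0.18 over both, or -0.77 scaled to the regions of all 8 lists. A gene has a region only where some list called a peak: Btg2 had one through an untreated list alone, and Plk3, Gadd45a and Mdm2 had one through treated lists alone.

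**Figure D2:**
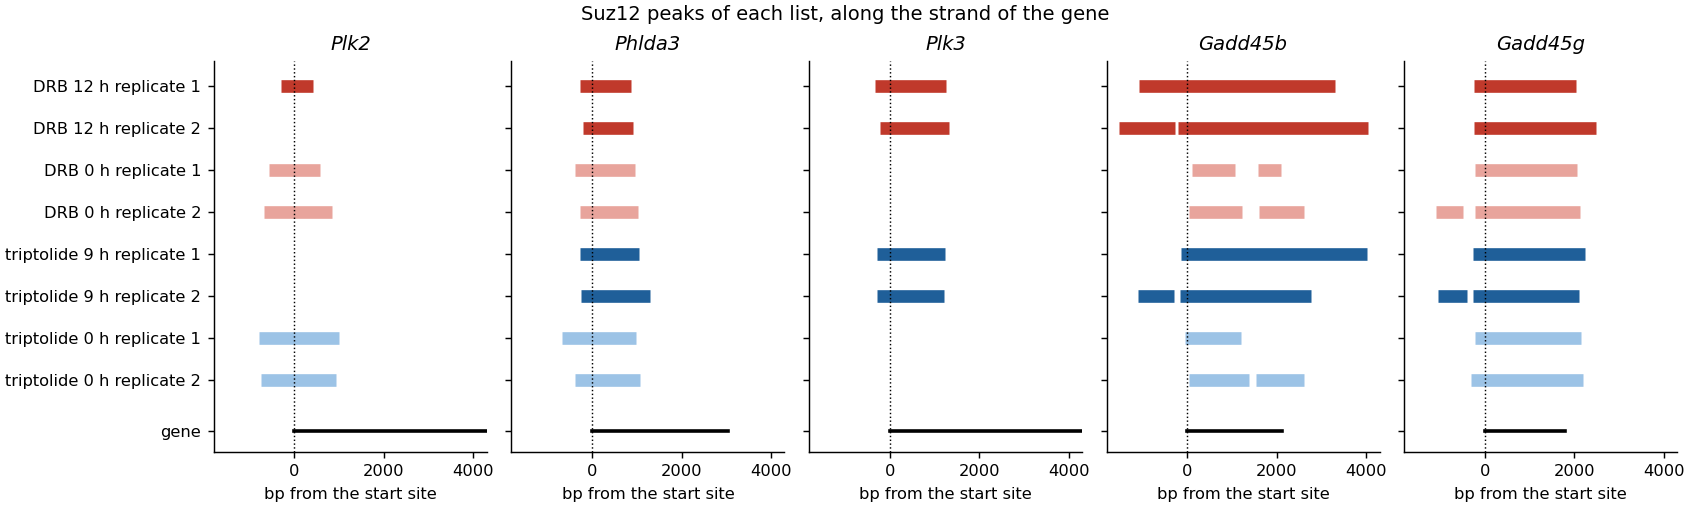
Peaks of each of the 8 lists at 5 genes, drawn from the start site along the strand of the gene (x axis, bp), with 1 row per list and the gene body in black. Plk2 has peaks in 1 treated list and 4 untreated lists, Plk3 in the 4 treated lists alone, and the peaks of Gadd45b reach farther on both sides in the treated lists.

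The Gadd45 genes encode small acidic proteins that bind the stress kinase Map3k4 and halt the cell cycle, and the 3 paralogs differed in Suz12. Gadd45b had a peak in all 8 lists, with 216 and 195 CPM at DRB 12 h, against 120 and 112 CPM at DRB 0 h. It had 206 and 180 CPM at triptolide 9 h, against 135 CPM in each library at triptolide 0 h. All treated libraries were above all untreated ones. The log2 change was 0.83 ± 0.13 under DRB and 0.52 ± 0.13 under triptolide, and 0.67 ± 0.09 over both, or 1.04 scaled to the regions of all 8 lists. Gadd45b was counted over the peak of DRB 12 h replicate 1, a treated list, which favours this difference.

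At Gadd45b the peaks were also wider in treated lists. They covered 4377 and 5503 bp at DRB 12 h, against 1471 and 2182 bp at DRB 0 h, and 4176 and 3707 bp at triptolide 9 h, against 1253 and 2421 bp at triptolide 0 h. Their outer ends lay 2767 to 4044 bp after the start site in treated lists and 1198 to 2618 bp after it in untreated lists, while the gene itself spans chr10:80930091-80932204. On the upstream side the peaks began at -1523 to -147 bp in treated lists and at -54 to 113 bp in untreated lists. Depth differed too, with 2416523 and 7340017 counted reads at DRB 12 h and 1323927 and 4396744 at DRB 0 h. Triptolide 9 h had 4334359 and 4441617 reads, and triptolide 0 h had 3699979 and 3070224. Whether depth set the called widths was not tested.

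The counts of Gadd45b were also higher in treated libraries within sequence that the untreated lists had called. A core of 953 bp, the larger peak of DRB 0 h replicate 1, was chosen after the values had been seen. It averaged 87.6 CPM per kb at DRB 12 h and 45.8 at DRB 0 h, a ratio of 1.91, and 89.1 at triptolide 9 h and 60.0 at triptolide 0 h, a ratio of 1.49. The remaining 3424 bp of the widest peak averaged 35.6 CPM per kb at DRB 12 h and 21.1 at DRB 0 h, a ratio of 1.69, and 31.5 at triptolide 9 h and 22.6 at triptolide 0 h, a ratio of 1.39. These 3424 bp are not the added ends alone, since they hold a second peak also called in untreated lists. At DRB 0 h replicate 2 that second peak ran from 1600 to 2601 bp after the start site. Its ratios were 1.67 under DRB and 1.59 under triptolide. The peak farthest upstream, called at DRB 12 h replicate 2, lay outside every untreated peak. It had the smaller ratios of 1.15 under DRB and 1.31 under triptolide.

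**Figure D3:**
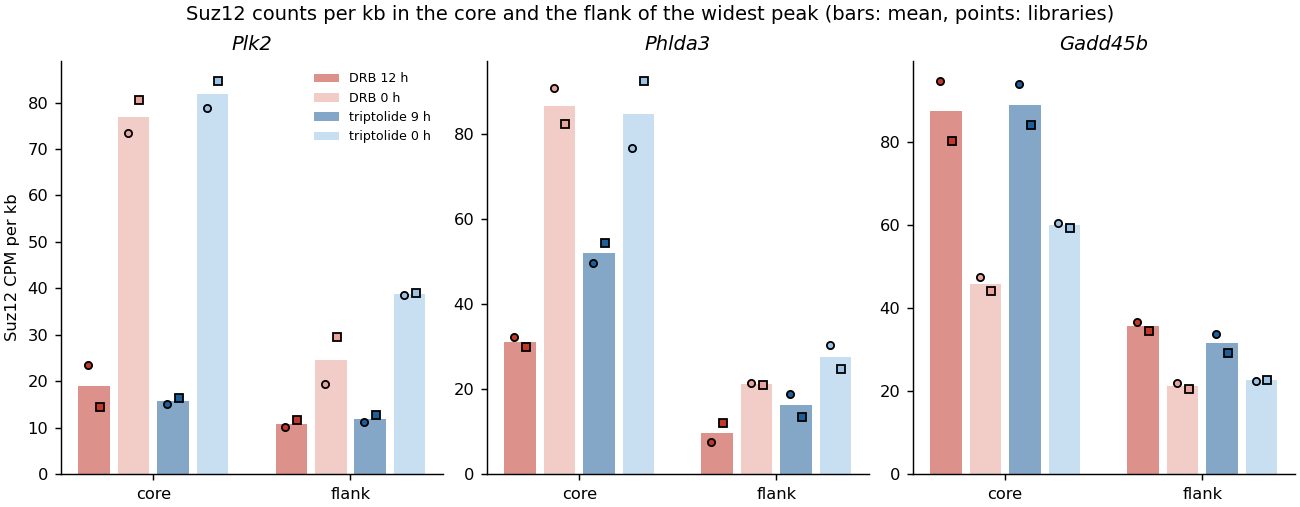
Suz12 CPM per kb in the core (the narrowest peak, or at Gadd45b the larger peak of DRB 0 h replicate 1) and in the flank (the rest of the widest peak), with bars for the mean of 2 libraries and points for the libraries. At Plk2 and Phlda3 the core is lower in treated libraries. It is above the flank there in every group, which its choice as a called peak favours. At Gadd45b core and flank are both higher in treated libraries.

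Gadd45g had the highest Suz12 level per kb of the 8 genes, with 74.3 to 81.9 CPM per kb in treated libraries and 96.5 to 108 CPM per kb in untreated ones, over a main region with a peak in all 8 lists. It had 202 and 223 CPM at DRB 12 h, against 263 and 295 CPM at DRB 0 h. It had 219 and 223 CPM at triptolide 9 h, against 288 and 273 CPM at triptolide 0 h. The treated libraries lay below the untreated ones, but by less than at the other genes with lower counts. The log2 change was -0.39 ± 0.12 under DRB and -0.35 ± 0.12 under triptolide, and -0.37 ± 0.08 over both. Scaled to the regions of all 8 lists it was -0.004 over both drugs, -0.06 under DRB and 0.05 under triptolide. Set against the median change of all regions, it was -0.42 in either scaling. The peaks covered 2272 to 2998 bp in treated and 2269 to 2964 bp in untreated lists, a second small region upstream included. That second region, at chr13:51845580-51846270 and called in DRB 0 h replicate 2 and triptolide 9 h replicate 2, averaged 11.2 CPM at DRB 12 h and 22.7 CPM at DRB 0 h, and 12.9 CPM at triptolide 9 h and 15.6 CPM at triptolide 0 h.

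Gadd45a, the paralog best known as a direct p53 target, had a single peak, in DRB 12 h replicate 1, and low counts. It had 19.6 and 13.9 CPM at DRB 12 h, against 10.7 and 10.1 CPM at DRB 0 h. It had 10.4 and 16.9 CPM at triptolide 9 h, against 6.59 and 14.4 CPM at triptolide 0 h. The groups overlapped under triptolide and not under DRB, and the log2 change was 0.66 ± 0.40 under DRB and 0.40 ± 0.38 under triptolide. Over both it was 0.53 ± 0.28, and 0.89 scaled to the regions of all 8 lists. It was 0.29 without triptolide 0 h replicate 1, 0.34 without triptolide 9 h replicate 2 and 0.85 without triptolide 0 h replicate 2. Per kb, the treated libraries held 11.3 to 21.3 CPM and the untreated ones 7.18 to 15.7 CPM.

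Mdm2, the ubiquitin ligase that degrades p53, had a single 550 bp peak, in DRB 12 h replicate 1, which began 512 bp after the start site. It held 28 and 31 reads at DRB 12 h, against 7 and 21 reads at DRB 0 h, and 6 and 8 reads at triptolide 9 h, against 17 and 9 reads at triptolide 0 h. In CPM these were 11.2 and 3.89 at DRB 12 h, against 5.75 and 4.94 at DRB 0 h, and 1.27 and 1.67 at triptolide 9 h, against 4.87 and 3.25 at triptolide 0 h. The DRB 12 h library of index ATCACG stood apart from that of index TGACCA. Neither index can be tied to the list that called the peak. On the log2 scale Mdm2 differed by 0.38 ± 0.64 under DRB and -1.47 ± 0.73 under triptolide, of opposite sign, so that the -0.54 ± 0.49 over both averages over that. Over both it was -0.93 without the DRB 12 h library of index ATCACG, -0.18 without that of index TGACCA, and -0.19 scaled to the regions of all 8 lists. Ccng1, a cyclin that brings a phosphatase to Mdm2, and Trp53inp1, a nuclear protein that promotes p53 phosphorylation, had no peak within 1 kb of an end in any list, nor within 2.5 kb. No level is given for them, since counts exist over peaks alone.

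Over the 8 genes with a region, the 4 treated libraries lay above the 4 untreated ones at 2 (Plk3 and Gadd45b) and below them at 4 (Plk2, Phlda3, Btg2 and Gadd45g). Over all regions, 24.4% had all treated libraries above and 25.2% below. Since these genes were chosen with this contrast known, nothing is read from their counts against those shares. The median log2 change of the 8 genes was -0.46, and -0.29 without the DRB 12 h library of index TGACCA. It was -0.09 scaled to the regions of all 8 lists.

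**Figure D4:**
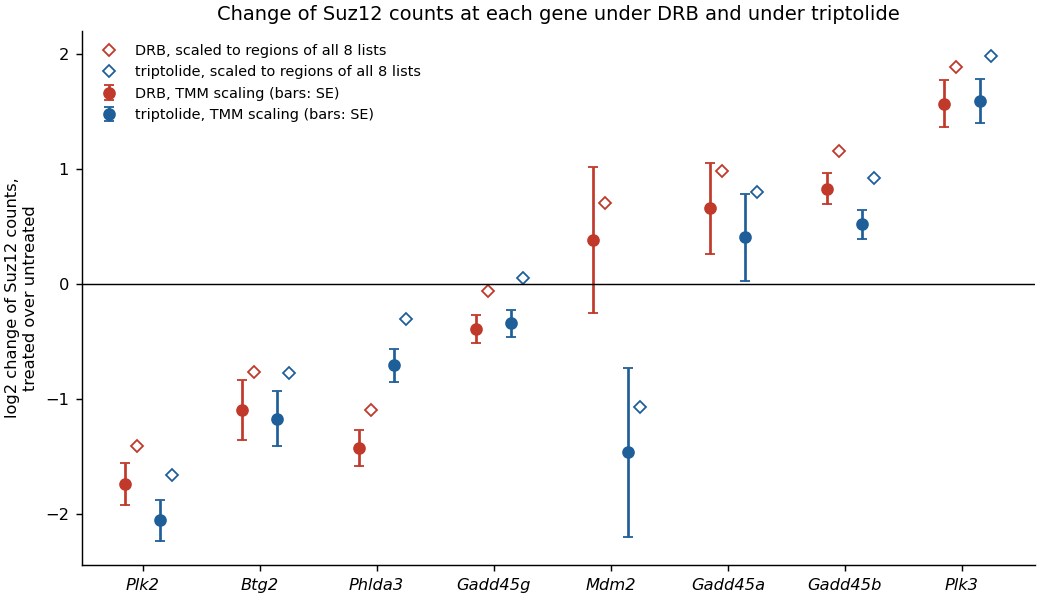
Log2 change of Suz12 counts, treated over untreated, at the 8 genes under DRB and under triptolide, with filled points for TMM scaling (bars: SE) and open points for scaling to the regions of all 8 lists. The second scaling moves each gene upward, which takes Gadd45g to about 0, and the DRB and triptolide points are farthest apart at Mdm2 and Phlda3.

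Whether the drugs differed was tested, as the choice of the genes had not used that contrast. Gadd45a and Mdm2, however, had a region through DRB 12 h replicate 1 alone, and Btg2 through triptolide 0 h replicate 2 alone. Their values in this contrast are therefore not free of selection. The other genes were counted over their widest peak, which also came from a group of this contrast. That group was triptolide 0 h at Plk2 and Phlda3, and DRB 12 h at Plk3, Gadd45b and Gadd45g. The values of these genes are not free of selection either. The change under DRB minus the change under triptolide was -0.72 ± 0.21 on the log2 scale at Phlda3, with an unadjusted p of 0.00466 in edgeR and an adjusted p of 0.999. DESeq2 gave -0.75 ± 0.28 at Phlda3, with an unadjusted p of 0.0085 and an adjusted p of 1. The difference was 0.31 ± 0.25 at Plk2, 0.31 ± 0.18 at Gadd45b, 0.07 ± 0.35 at Btg2, -0.05 ± 0.17 at Gadd45g and -0.02 ± 0.28 at Plk3. It was 0.25 ± 0.55 at Gadd45a and 1.85 ± 0.97 at Mdm2, whose few reads leave a wide error. Of the 8 genes, 0 were called by edgeR, 1 had an unadjusted p under 0.05, and 0 were called by DESeq2. Over all regions edgeR called 2, or 0.0167%, with 193 at an unadjusted p under 0.05, and DESeq2 called 3. The doses and times of the drugs differed, at 100 µM for 12 h and 10 µM for 9 h.

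The untreated groups of the DRB and triptolide series were compared in the same way. Btg2, with a region through triptolide 0 h replicate 2 alone, is not free of selection here either. The same holds for Plk2 and Phlda3, which were counted over peaks of triptolide 0 h replicate 1. DRB 0 h minus triptolide 0 h was -0.28 ± 0.17 on the log2 scale at Plk2, -0.22 ± 0.14 at Gadd45b, -0.17 ± 0.24 at Btg2, -0.02 ± 0.15 at Phlda3 and -0.002 ± 0.12 at Gadd45g. It was 0.34 ± 0.68 at Mdm2, 0.004 ± 0.22 at Plk3 and 0.002 ± 0.42 at Gadd45a. Of the 8 genes, edgeR called 0, 0 had an unadjusted p under 0.05, and DESeq2 called 0. Over all regions edgeR called 0 (0%), with 284 at an unadjusted p under 0.05, and DESeq2 called 0.

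The genes whose counts were most like those of Plk2, Phlda3 and Gadd45b were found by the Euclidean distance of centred log2 CPM over the 8 libraries, among regions of similar level. Nearest to Plk2 were Zfp365 (distance 0.477), Anks1b (0.697) and Ddit4l (0.743), of 2768 candidates. Zfp365 averaged 14.6 CPM in treated and 55.2 CPM in untreated libraries. Nearest to Phlda3 were Ptpn14 (0.331), Slc6a5 (0.337) and Commd3 (0.458), of 2512 candidates. Like Phlda3, Ptpn14 had a larger change under DRB, -1.48 on the log2 scale, than under triptolide, -0.93. Nearest to Gadd45b were Rragd (0.179), Phospho1 (0.255) and Fgf11, whose region is shared with Tmem102 (0.284), of 1896 candidates, and Rragd averaged 141 CPM in treated and 85.9 CPM in untreated libraries. These likenesses are descriptions over the same 8 libraries.

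The other genes of the pathway were counted from 3 lists, and a listed gene is counted only where some list called a peak. Treated lists held 7153 to 10929 peaks, against 5116 to 6886 in untreated lists. A region called in treated lists alone passed the peak call in some treated list and in no untreated list, which favours higher counts in treated libraries. Over all regions, edgeR called 28% higher and 28.9% lower over both drugs at an adjusted p under 0.05, with a median log2 change of 0.05. Among the 5115 regions called in treated lists alone, 44.2% were called higher and 1.15% lower, and among the 6621 regions with peaks in both kinds of list, 16.3% higher and 48.4% lower. Calls of the listed genes are set beside these shares, and no p is given for a gene with peaks in treated lists alone. The lists were chosen with earlier results of these data known, and the named genes are the largest changes among those called. The adjusted p-values given for them are therefore descriptions of the fit, and nothing is concluded from them.

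Of 50 other p53 targets, 49 were matched to a gene and 25 had a region. In edgeR 7 were called higher (28%) and 5 lower (20%), and 13 passed in neither direction, with a median log2 change of 0.06. Of those called higher, 6 had peaks in treated lists alone. Of the 13 genes with peaks in both kinds of list, 1 was called higher and 5 lower. Scaled to the regions of all 8 lists, 14 were called higher and 4 lower; with DESeq2, or without triptolide 0 h replicate 1, 4 were called higher.

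Among the p53 targets with peaks in both kinds of list, Ddit4l, an inhibitor of mTOR signalling, averaged 23.3 CPM at DRB 12 h and 88.2 CPM at DRB 0 h, and 30.5 CPM at triptolide 9 h and 94.7 CPM at triptolide 0 h (log2 change -1.76 ± 0.13, edgeR adjusted p = 1.57e-06). Pmaip1, the apoptosis inducer Noxa, kept a peak in all 8 lists and fell by 0.72 ± 0.13 (edgeR adjusted p = 0.000608). The receptor Notch1 rose by 0.71 ± 0.14 (edgeR adjusted p = 0.000923). Sfn, an adaptor that holds cell cycle proteins in the cytoplasm, had a peak in the 4 treated lists alone and averaged 40.6 CPM at DRB 12 h and 15.6 CPM at DRB 0 h, and 32.5 CPM at triptolide 9 h and 18.7 CPM at triptolide 0 h. The receptor kinase Epha2, with peaks in 2 treated lists alone, had a log2 change of 0.86 ± 0.17.

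Of 33 regulators of p53 and paralogs of the 10 genes, 17 had a region. In edgeR 6 were called higher (35.3%) and 4 lower (23.5%), beside 28% and 28.9% of all regions, and 7 passed in neither direction. Their median log2 change was 0.24, beside 0.05 over all regions. Of those called higher, 3 had peaks in treated lists alone, and of the 9 genes with peaks in both kinds of list, 3 were called higher and 4 lower. Scaled to the regions of all 8 lists, 11 were called higher and 2 lower. Of the Btg family, both with peaks in both kinds of list, Tob2 rose by 0.99 ± 0.11 (edgeR adjusted p = 2.77e-05) and Btg4, which acts in the oocyte, fell by 0.97 ± 0.12 (edgeR adjusted p = 3.4e-05). Kat5, an acetyltransferase that acts on p53 and whose region is shared with Rnaseh2c, had peaks in the 4 treated lists alone. It averaged 29.9 CPM at DRB 12 h and 14.9 CPM at DRB 0 h, and 34.6 CPM at triptolide 9 h and 13.6 CPM at triptolide 0 h. Trp53bp2, which promotes the apoptotic function of p53, and the mitotic kinase Plk1 also had peaks in treated lists alone, with log2 changes of 0.88 ± 0.17 and 0.95 ± 0.28.

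Of 32 stress kinase and stress response genes, 19 had a region. In edgeR 8 were called higher (42.1%) and 3 lower (15.8%), beside 28% and 28.9% of all regions, and 8 passed in neither direction. Their median log2 change was 0.28, beside 0.05 over all regions. Of those called higher, 5 had peaks in treated lists alone, and of the 9 genes with peaks in both kinds of list, 3 were called higher and 3 lower. Scaled to the regions of all 8 lists, 11 were called higher and 1 lower. With DESeq2, or without triptolide 9 h replicate 1 or triptolide 0 h replicate 2, 4 were called higher. Without any one of the other triptolide libraries or the DRB 0 h library of index TGACCA, 5 were called higher. Among genes with peaks in both kinds of list, Map2k7, which activates the kinase JNK and shares its region with Tgfbr3l, rose by 0.88 ± 0.11 (edgeR adjusted p = 3.68e-05). Ddit4, a paralog of Ddit4l that also inhibits mTOR signalling, fell by 0.93 ± 0.18 (edgeR adjusted p = 0.000798). Hsph1, a large heat shock chaperone, had a peak in the 4 treated lists alone and averaged 24.6 CPM at DRB 12 h and 9.81 CPM at DRB 0 h, and 32.1 CPM at triptolide 9 h and 12.9 CPM at triptolide 0 h. Chac1, which degrades glutathione, and Trib3, a pseudokinase of the stress response, also had peaks in treated lists alone, with log2 changes of 0.99 ± 0.17 and 0.84 ± 0.32.

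**Figure D5:**
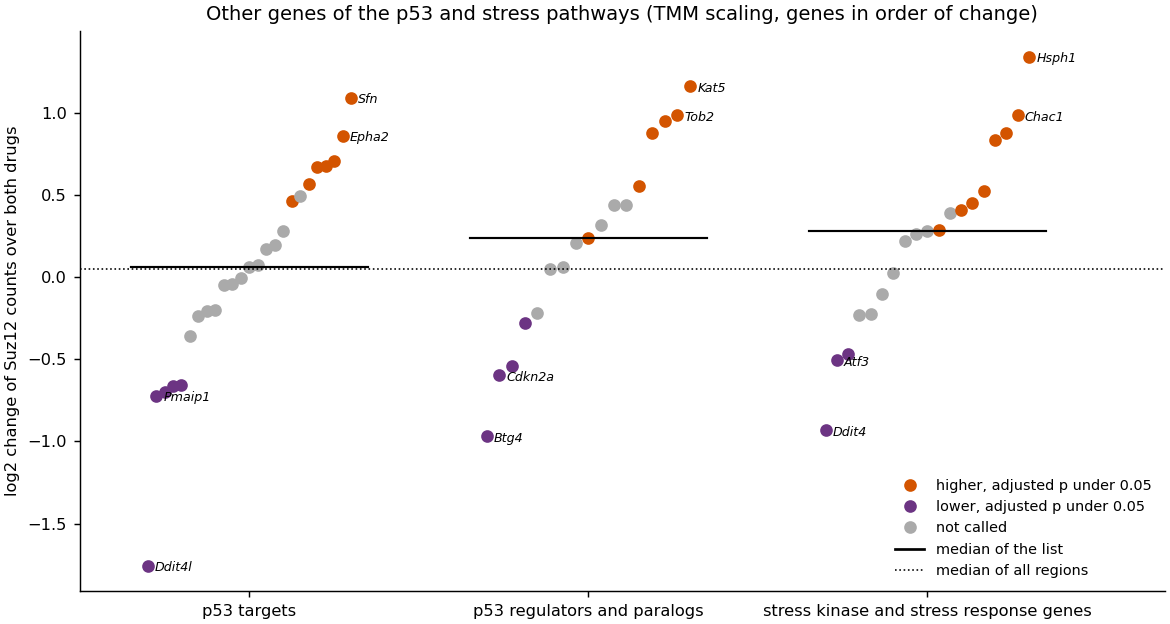
Log2 change of Suz12 counts over both drugs at other genes of the p53 and stress pathways with a region, 1 point per gene in order of change, coloured by call at an edgeR adjusted p under 0.05. Solid lines mark the list medians, 0.06, 0.24 and 0.28, and the dotted line marks the median of all regions, 0.05.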

How the data were processed

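The deposited peak lists hold 1 library's peaks each, with read counts in 13 columns, whole numbers without normalization per the file headers. The authors used Bowtie and MACS on mm10 (GRCm38), per the submitters' processing notes, which name no version. Column names placed 8 columns in the 4 groups; the DRB columns carry an index and no replicate number. The other 5 columns were not used, and 12 of the 20 samples of the series were not analysed here. Members and gene lists were chosen with earlier results of these data known.

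Peaks overlapping by 1 bp were merged, and a region's counts were those of its widest peak. Genes took the regions within 1 kb of either annotated end. All regions were fitted in edgeR 4.0.16 (R 4.3.3) by quasi-likelihood, with TMM scaling, 4 groups, no filter and Benjamini-Hochberg adjustment; a standard error is the log2 change divided by the square root of F. The fit was run on data simulated from its own estimate of the spread with few regions changed. Scaling under changes as wide as those called here was therefore not tested. Named pathway genes were up to 5 per list, the largest changes among those called. Ptprv was not matched, and Bai1 was matched as Adgrb1. Genes most alike, 3 for each, had a mean CPM within a factor of 2 of the gene they were set against. Alternatives were other scalings, a filter on low counts, DESeq2 1.42.0, the peak closest to the gene end, windows of 2.5 kb, a replicate block and leaving out each library.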

Additional observations from a re-analysis of the deposited data

How the results depend on the processing

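Of 281 values recomputed under an alternative, 251 were classed as the same and 0 reversed. A log2 change classed so kept its direction and its side of the threshold, or moved by less than its error. Counts of called genes classed so still shifted by up to 1.5 times. Scaled to the sum of counts, for example, p53 targets called higher went from 7 to 10 and stress genes from 8 to 10. Scaling decided most of the rest. The median log2 change of the 8 genes, -0.46, was -0.26 with libraries scaled to the sum of counts and -0.095 scaled to the regions of all 8 lists, and ran from -0.63 (without DRB 12 h index ATCACG) to -0.29 (without DRB 12 h index TGACCA) with 1 library left out. At the same scaling to the regions of all 8 lists, 14 p53 targets and 11 regulators and paralogs were called higher, and 2 regulators and paralogs and 1 stress gene were called lower; Plk5 had 0.08 there and -0.28 in TMM scaling. With DESeq2, 4 p53 targets and 4 stress genes were called higher. With 1 library left out, 4 to 7 p53 targets were called higher (4 without triptolide 0 h replicate 1), 4 to 9 stress genes (4 without triptolide 9 h replicate 1 or 0 h replicate 2, and 5 without triptolide 9 h replicate 2, 0 h replicate 1 or DRB 0 h index TGACCA) and 4 to 7 regulators and paralogs, and 3 to 5 regulators and paralogs were called lower. Among the 10 genes, Gadd45a ran from 0.29 to 0.85 and Mdm2 from -0.93 to -0.18. When peaks under 1357 bp, the median width, were dropped, 1 gene in place of 3 had a peak in all 8 lists. The causes were not tested. Numbers pair the triptolide libraries alone; over 11943 regions the same-numbered ones deviated together (r = 0.39), but with 2 pairs they share only a number. A replicate block for them gave a median of -0.45 and moved no count by over 1.5 times. Mdm2 had 6 to 31 reads per library.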
